A study of Mus musculus with 44 samples.

Results

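Impact is a paternally expressed imprinted gene of the mouse: the copy inherited from the father is read and the maternal copy is silent. In the mouse its maternal copy carries DNA methylation at a CpG-rich stretch in the first intron, and cells that keep the imprint carry methylated and unmethylated copies of it side by side. The protein is abundant in neurons, where it binds GCN1 and so restrains GCN2, the kinase that slows protein synthesis when amino acids are short.

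The gene was chosen by its measured methylation in these same libraries, so its levels and differences are given as a description of 1 gene of the 23492 that had at least 3 measured cytosines in the blood LPS 6 h table. All 12 tissue and treatment groups entered that choice, and no measure of the gene was kept apart from it. Its members are the cytosines from 1000 bp before to 1000 bp after the RefSeq span of Impact, chr18:12954690-12992950 on GRCm38/mm10. They numbered 56 of 1654715 distinct cytosines in the 9 tables, 33 on the + strand and 23 on the − strand, and 48 of them stood in all 9 tables.

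The study measured 44 libraries by reduced representation bisulfite sequencing, which enriches CpG-dense fragments and reads the share of molecules methylated at each cytosine. Whole blood, hippocampus and frontal cortex came from wild-type male C57BL/6J mice aged 8 to 12 weeks. Every mouse, controls included, carried the same exposure, a Gulf War Illness model: its water held corticosterone (CORT, the stress hormone of rodents; 200 mg/L with ethanol at 0.6%) for 7 days, followed by the cholinesterase inhibitor diisopropyl fluorophosphate (DFP) at 4 mg/kg on day 8, and further intermittent CORT up to 5 weeks. The animals then received lipopolysaccharide (LPS, bacterial endotoxin, 0.5 mg/kg) with collection at 6 h, 12 h or 24 h, or saline with collection at 6 h.

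Blood had 4, 3 and 3 libraries after LPS 6 h, 12 h and 24 h, and 4 after saline. Hippocampus had 4, 3 and 4, and 3 after saline, and cortex had 4 in each group. The 3 comparisons of a tissue share their saline libraries, and at 12 h and 24 h the time since injection differed from saline as well as the injection. The labels do not tie libraries to animals, and the spread between them may be technical. The tables hold percentages without read counts, and the depth of each value is unknown.

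Several libraries stood apart. Over 7 measured genes of blood cells, which tend to carry little methylation in those cells, the median level was 8.66%, 8.42% and 6.26% in blood after LPS 6 h, 12 h and 24 h, against 36.0% in blood after saline, while saline hippocampus and saline cortex had 66.5% and 65.9%. For 4 of the 7 genes saline blood lay between LPS blood and both brain tissues. Whether the saline blood libraries match their label in full, or LPS moved these genes, cannot be told from the percentages. Each blood difference below rests on the saline blood libraries, and no other controls were there to replace them. Over 6 neuronal genes the median was lower in brain (20.9% in saline hippocampus, 23.7% in saline cortex) than in blood after LPS 6 h (43.8%), and saline blood had 27.1%. In hippocampus the lowest overall means (over the cytosines shared by its tables) belonged to LPS 12 h replicate 2 (23.7%), LPS 6 h replicate 4 (24.1%) and LPS 24 h replicate 4 (24.2%), against 25.5% to 25.8% in the saline libraries. In cortex, 8 of 16 libraries stood apart from the other 8 at 5 cytosines of Impact. They also tended to differ from the other 8 over the whole tables, as described further on.

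The 56 cytosines lay in 5 fixed tiles of 1 kb, which fell into 3 kinds of level. The tile chr18:12955000-12955999, at the lower-coordinate end of the span, held 10 cytosines and was nearly unmethylated in all tissues: it averaged 4.84% ± 1.37 (SD, n = 3) in saline hippocampus, 3.24% ± 2.15 (SD, n = 4) in saline cortex and 5.49% ± 1.85 (SD, n = 4) in saline blood. The tile chr18:12973000-12973999 held 32 cytosines within 376 bp, and is called the dense tile here. Its level was intermediate, at 36.5% ± 1.02 (SD, n = 3) in saline hippocampus, 34.5% ± 7.53 (SD, n = 4) in saline cortex and 40.9% ± 4.17 (SD, n = 4) in saline blood. Toward the higher-coordinate end, chr18:12988000-12988999 held 6 cytosines at 95.2% ± 1.55 (SD, n = 3), 96.6% ± 0.531 (SD, n = 4) and 94.2% ± 2.19 (SD, n = 4) in the same 3 groups. The neighbouring chr18:12989000-12989999, called the end tile, held up to 6 cytosines at 90.7% ± 4.35 (SD, n = 3), 90.2% ± 4.59 (SD, n = 4) and 86.9% ± 2.71 (SD, n = 4). The fifth tile, chr18:12963000-12963999, had 1 or 2 cytosines in cortex tables alone, at 94.3% to 96.4% in the group means. The gene table used gives neither strand nor exons, so the tiles were not assigned to exons, introns or a promoter.

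Single saline cytosines ranged over almost the whole scale. The lowest was at 0% in every saline cortex library (chr18:12955910, − strand), and the highest averaged 99.2% ± 1.56 (SD, n = 4) in saline cortex (chr18:12988528, + strand). In saline blood the extremes were 1.57% ± 2.19 (SD, n = 4) at chr18:12955778 and 95.8% ± 2.85 (SD, n = 4) at chr18:12989936. The gene mean, taken over every Impact cytosine in a table, lay at 42.8 to 48.6% in the saline blood libraries and 36.4 to 38.0% in the saline hippocampus libraries of the 6 h table. Those 2 ranges do not cover the same cytosines, because the hippocampus 6 h and 24 h tables lack the end tile. Over shared cytosines, limma's difference was -2.20 points for hippocampus minus blood (SE 1.47), -3.97 for cortex minus blood (SE 2.40) and 1.57 for hippocampus minus cortex (SE 2.40). None of the 3 was called at an adjusted p under 0.05, nor was that of the dense tile, where they were -4.39, -6.41 and 2.02 points.

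In hippocampus the dense tile was low in all libraries taken 6 h and 24 h after LPS. The 4 LPS 6 h libraries had 18.9%, 16.0%, 20.3% and 16.1%, against 37.4%, 35.4% and 36.6% in the 3 saline libraries. The 4 LPS 24 h libraries had 22.4%, 16.5%, 19.3% and 15.8%. Neither LPS group overlapped saline, and each spanned fewer than 7 points.

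The 3 LPS 12 h libraries of hippocampus had 37.9%, 13.1% and 35.6%, so 2 of them sat near the saline libraries and replicate 2 sat below every library of the other times. The mean difference from saline was -18.7 points at 6 h (SE 2.42), -7.62 at 12 h (SE 6.28) and -18.0 at 24 h (SE 2.66). Without LPS 12 h replicate 2, the 12 h difference was 0.259 points.

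**Figure D1:**
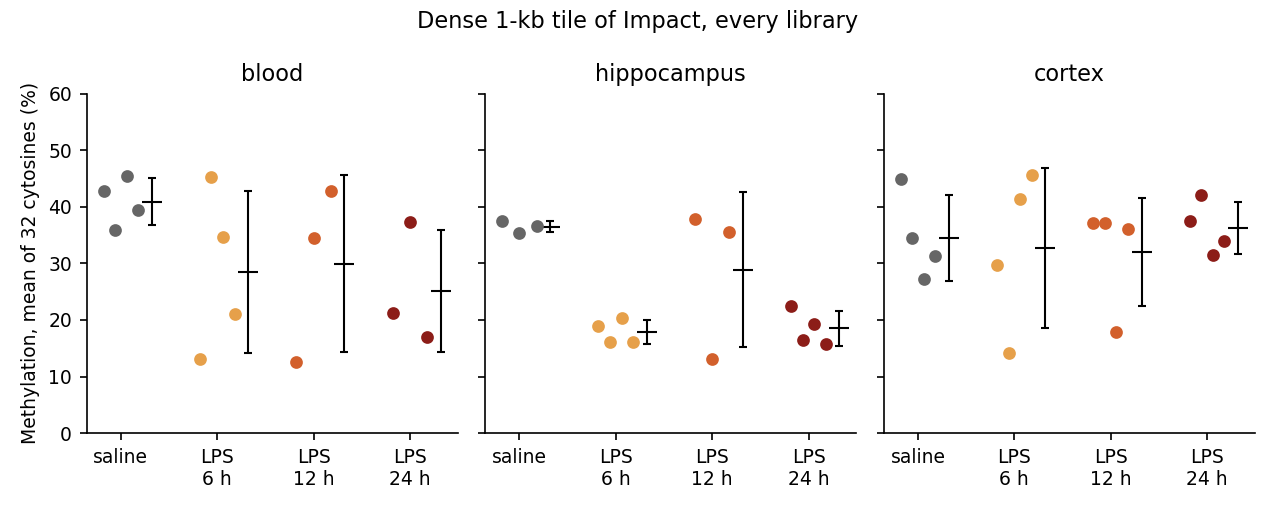
Mean methylation in percent of the 32 cytosines of the dense tile of Impact in each library (points), by tissue and group; the bar beside each group is the mean with its SD. In hippocampus all LPS 6 h and 24 h libraries lie between 15.8% and 22.4%, below the saline libraries at 35.4% to 37.4%, while blood and cortex groups overlap saline.

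A tile was called when limma, with Benjamini-Hochberg adjustment over all tiles of the table, gave an adjusted p under 0.05 and the difference reached 5 points. In hippocampus the calls were 0 of 63754 tiles at 6 h (0% called), 0 of 70855 at 12 h (0%) and 0 of 56970 at 24 h (0%). At an unadjusted p under 0.05 these fits had 11452, 2583 and 5239 tiles. Of all tested tiles, 0.838% had a difference as low as that of the dense tile or lower at 6 h, and 0.256% at 24 h. Tiles whose LPS libraries all lay below all saline libraries made up 16.2% at 6 h and 8.23% at 24 h. Where tiles needed 5 cytosines in place of 3, 72 of 33274 were called at 6 h and the dense tile was among them.

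The gene mean moved with the dense tile, which held 32 of its 48 cytosines in the 6 h and 24 h tables. The gene mean is thus not a separate observation. It was 25.02%, 23.5%, 26.1% and 23.7% in the LPS 6 h libraries and 27.9%, 24.6%, 25.4% and 23.2% in the LPS 24 h libraries, against 38.0%, 36.4% and 37.3% in saline. The difference was -12.6 points at 6 h (SE 0.799) and -12.0 points at 24 h (SE 1.12). At 6 h it was called lower, as were 294 of 16084 genes (1.83%), and the call was lost without LPS 6 h replicate 1, LPS 6 h replicate 2 or saline replicate 3. At 24 h it was not, in a table with 0 of 15838 genes called lower (0%) and 1685 genes at an unadjusted p under 0.05. With each library centred on its own mean over the table, the 24 h difference was -11.4 points, and Impact was then the 1 gene of 15838 called. An exact permutation test of the gene mean over libraries gave p = 0.0571 at 6 h and at 24 h, the smallest it can give here. Nothing can be read from these calls or p-values in support, because the same contrasts chose the gene.

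The other hippocampal tiles overlapped saline. The nearly unmethylated tile had no room for a fall in points like that of the dense tile. At 6 h and 24 h it and chr18:12988000-12988999 lay outside the 5 to 95% band and were not tested as tiles. In the nearly unmethylated tile 3 of 4 libraries at 6 h and 2 of 4 at 24 h lay below all saline ones, with 1 of 4 above at 24 h. The nearly unmethylated tile had 0.934%, 1.86%, 2.55% and 4.84% in the LPS 6 h libraries and 5.56%, 6.27%, 2.60% and 2.20% in the LPS 24 h libraries, against 5.57%, 3.26% and 5.70% in saline, with overlap. The highly methylated tile at chr18:12988000-12988999 averaged 97.3% ± 1.69 (SD, n = 4) at 6 h and 96.4% ± 2.06 (SD, n = 4) at 24 h, against 95.2% ± 1.55 (SD, n = 3) in saline. The end tile was measured at 12 h alone, with 91.2%, 95.5% and 91.0% after LPS and 95.6%, 89.2% and 87.2% after saline.

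Within the dense tile the 32 cytosines were not 32 separate readings. In blood and hippocampus libraries, neighbours on 1 strand carried nearly the same level. Joining them while their mean difference over blood and hippocampus libraries stayed under 6 points gave 6 runs of 4 to 7 cytosines. This grouping was made after the values were seen. The median range inside a run was 3.04 to 4.50 points over blood and hippocampus libraries, which defined the runs. Over cortex libraries it was 3.04 to 12.3 points. Between the 6 runs of a library the range was larger, with a median of 22.0 points in hippocampus, 21.0 in blood and 19.9 in cortex. The runs follow each other with alternating strand, and both cytosines of a CpG fell in different runs. At chr18:12973197 and chr18:12973198, the + and − cytosine of 1 CpG, the median absolute difference between strands was 8.13 points over 44 libraries and the largest was 30.7 points.

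**Figure D2:**
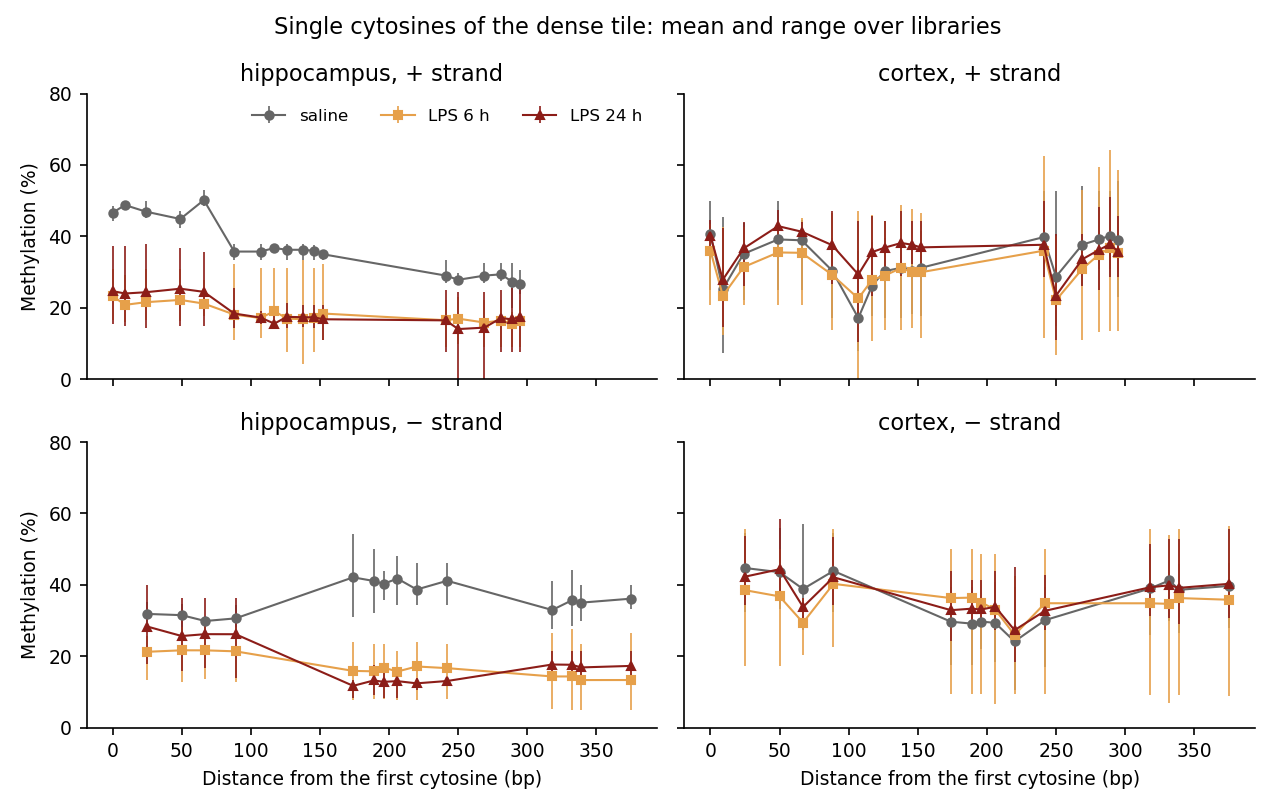
Methylation in percent of single cytosines of the dense tile against distance from its first cytosine in bp, by strand, in hippocampus (left) and cortex (right); points are group means and bars the lowest and highest library. In hippocampus the LPS 6 h and LPS 24 h means lie below the saline means at every cytosine on both strands, whereas in cortex the 3 groups overlap.

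In hippocampus 5 of the 6 runs did not overlap between LPS 6 h and saline, and 5 of 6 between LPS 24 h and saline, where 16.2% and 8.23% of all tiles had every LPS library below every saline library. The exception was in both cases the run on the − strand at chr18:12973156-12973220, where the difference was -9.47 points at 6 h and -4.37 points at 24 h. At 12 h 2 of 6 runs did not overlap saline, and 6.32% of all tiles had every LPS library below. That run read 27.8%, 23.4%, 13.2% and 21.7% in LPS 6 h libraries and 35.0%, 37.3%, 16.4% and 17.8% in LPS 24 h libraries, against 26.8%, 33.3% and 32.9% in saline. At 24 h its libraries parted into 2 above all saline libraries and 2 below. The 6 runs are parts of 1 tile, which itself did not overlap saline at 6 h and 24 h. The shares above are of whole tiles, so the counts of runs are not like for like with them.

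The largest difference between run means was on the − strand at chr18:12973305-12973373. It read 13.3%, 13.3%, 14.7% and 9.68% in the LPS 24 h libraries and 23.3%, 12.8%, 21.6% and 7.85% in the LPS 6 h libraries, against 40.6%, 33.9% and 48.1% in saline. The difference was -28.1 points at 24 h and -24.5 points at 6 h. The run at chr18:12973131-12973197 on the + strand had the highest saline mean, 47.5% ± 1.46 (SD, n = 3), and had 21.8% ± 5.77 (SD, n = 4) after LPS 6 h. In LPS 12 h replicate 2, the low library of that group, the run at chr18:12973372-12973426 read 0% while the other 5 runs read 8.54% to 24.4%.

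The single cytosines with the largest hippocampal differences lay in those same runs. At 6 h, chr18:12973197 had 21.2% ± 4.72 (SD, n = 4) after LPS against 50.2% ± 2.57 (SD, n = 3) after saline, a difference of -29.0 points. At 24 h, chr18:12973305 had 11.8% ± 2.33 (SD, n = 4) after LPS against 42.1% ± 11.6 (SD, n = 3) after saline, a difference of -30.4 points. All 32 cytosines of the dense tile had a lower mean after LPS at both times, against 25 of 32 at 12 h. Of these 32, limma called 0 at 6 h, 0 at 12 h and 0 at 24 h, in tables with 0% of cytosines called lower. An unadjusted p under 0.05 was found for 27, 0 and 26 of them, and for 9.84%, 5.44% and 7.39% of all tested cytosines.

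In blood the dense tile was lower on average and far more variable after LPS. The LPS 6 h libraries had 13.1%, 45.3%, 34.7% and 21.1%, against 42.8%, 35.9%, 45.5% and 39.3% in saline. The LPS 12 h libraries had 12.5%, 34.4% and 42.8%, and the LPS 24 h libraries 21.3%, 37.4% and 16.9%. In the lowest of these, LPS 12 h replicate 1, the 6 runs read 22.7%, 18.5%, 0.714%, 7.51%, 21.5% and 8.45%. Each LPS group had at least 1 library inside the saline range and at least 1 more than 10 points below it.

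The mean difference of the dense tile in blood was -12.3 points at 6 h (SE 5.41), -10.9 at 12 h (SE 5.71) and -15.7 at 24 h (SE 4.38). It was called at 24 h alone, in a table where 11.3% of 71782 tiles were called lower. An exact permutation test of the dense tile over the 24 h and saline libraries gave p = 0.114, where the smallest possible was 0.0571. At 6 h 11.8% and at 12 h 9.95% of tiles were called lower. Higher calls were more frequent in all 3 blood tables, with 22134, 21393 and 22344 tiles. Without LPS 24 h replicate 3 the 24 h difference was -11.5 points and no longer called, and without LPS 24 h replicate 1 it was -13.7 points and not called either.

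The end tile differed in blood without overlap at every time. The LPS 6 h libraries had 74.5%, 73.6%, 68.3% and 73.5%, against 85.8%, 90.6%, 86.8% and 84.3% in saline. The LPS 12 h libraries had 72.2%, 69.2% and 77.2%, and the LPS 24 h libraries 71.6%, 69.9% and 75.2%. The 3 LPS groups lay within 10 points of each other, with no library above 77.2%.

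The end tile fell by 14.4 points at 6 h (SE 2.48), by 14.0 at 12 h (SE 2.61) and by 14.7 at 24 h (SE 2.61), and was called in all 3 comparisons. Tiles whose LPS libraries all lay below all saline libraries made up 11.9%, 11.3% and 12.5% of tested blood tiles, so this pattern was frequent. Its saline blood level of 86.9% lay closer to those of saline hippocampus (90.7%) and saline cortex (90.2%, over 4 of the 6 cytosines) than to LPS blood, which is the same order as in the blood-cell genes. The part that the composition of the saline blood libraries has in this difference was not tested.

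**Figure D3:**
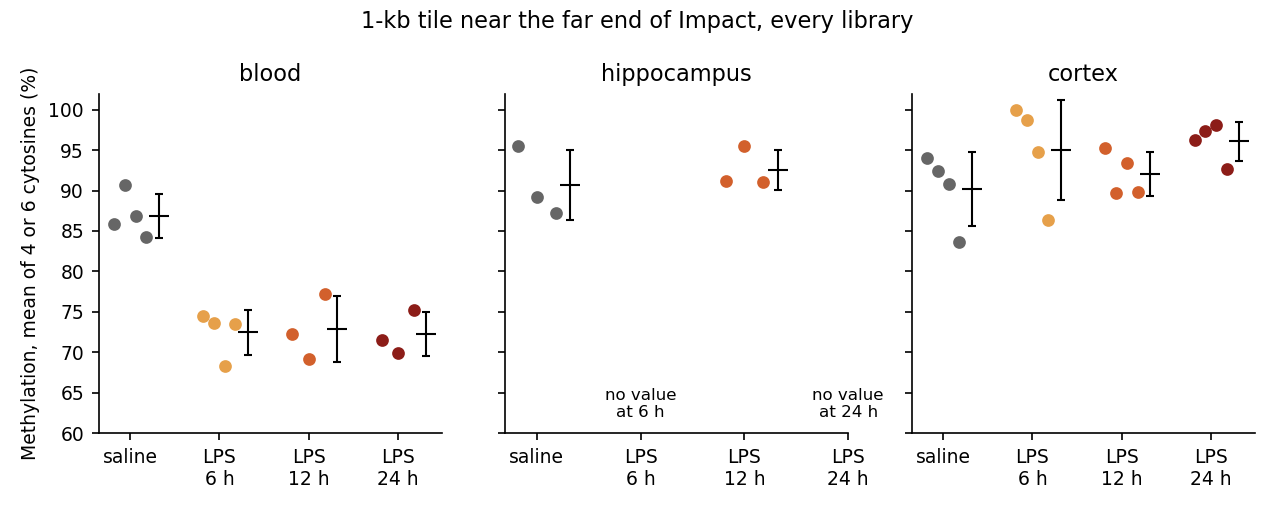
Mean methylation in percent of the end tile in each library (points), 6 cytosines in blood and hippocampus and 4 in cortex, with the group mean and SD beside them; the axis begins at 60%. The LPS blood libraries lie between 68.3% and 77.2%, below the saline blood libraries at 84.3% to 90.6%, and brain groups overlap saline.

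All 6 cytosines of the end tile were on the + strand within 46 bp, and the 2 largest single-cytosine differences of each blood comparison were at 3 of them. At chr18:12989916 the level was 50.1% ± 3.04 (SD, n = 4) at LPS 6 h and 48.1% ± 9.69 (SD, n = 3) at LPS 24 h, against 78.2% ± 11.2 (SD, n = 4) after saline. At chr18:12989913 it was 60.9% ± 13.3 (SD, n = 4) at LPS 6 h and 64.8% ± 8.00 (SD, n = 3) at LPS 24 h, against 88.9% ± 6.72 (SD, n = 4). At chr18:12989903 it was 51.2% ± 10.6 (SD, n = 3) at LPS 12 h, against 75.3% ± 8.22 (SD, n = 4).

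Over the whole gene, the blood comparisons called 9 of 47 tested cytosines lower at 6 h, 3 of 46 at 12 h and 14 of 43 at 24 h, and none of these tested cytosines higher. These counts rested on single libraries: the 24 h count was 2 without LPS replicate 1 and 3 without replicate 3, and 6, 4 and 5 without saline replicates 1, 2 and 3. The 12 h count was 0 without LPS replicate 2, 9 without replicate 3 and 1 without saline replicate 1 or 4, and the 6 h count was 16 without LPS replicate 2. Without the limit on level the counts were 5, 0 and 0. The call for a cytosine needed limma's adjusted p to be under 0.05 and the groups to be 10 points apart. Lower calls made up 7.63%, 7.14% and 8.08% of all tested cytosines in those tables. Higher calls were more frequent there, at 102398 of 497583, 95096 of 412169 and 100126 of 475639 tested cytosines. Of the called Impact positions, 6, 1 and 12 lay in the dense tile and 3, 2 and 2 in the end tile. In the dense tile all 32 cytosines had a lower mean after LPS than after saline in each of the 3 blood comparisons. The blood gene mean was lower by 8.89 points at 6 h (SE 3.57), 7.93 at 12 h (SE 3.99) and 11.3 at 24 h (SE 2.88) and was called at 24 h alone, where 9.82% of genes were called lower (11% at 6 h and 8.97% at 12 h). With each library centred on its mean, the difference was -10.8 points at 6 h and -10.4 at 12 h. Both were then called, in fits that called 33.5% and 33.2% of all genes lower. For the uncentred gene mean at 24 h, an exact permutation test over libraries gave p = 0.0571, the smallest it can give here.

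In cortex no LPS group stood apart from saline in the dense tile. The LPS 6 h libraries had 29.6%, 14.1%, 41.4% and 45.7%, against 44.8%, 34.5%, 27.2% and 31.3% in saline. The LPS 12 h libraries had 37.1%, 37.1%, 17.8% and 36.0%, and the LPS 24 h libraries 37.5%, 42.1%, 31.5% and 34.0%. Single libraries, LPS 6 h replicate 2 and LPS 12 h replicate 3, were as low as the LPS 6 h and 24 h libraries of hippocampus.

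The mean difference in cortex was -1.77 points at 6 h (SE 6.13), -2.45 at 12 h (SE 5.10) and 1.80 at 24 h (SE 4.00). None was called, in tables with 0 of 74733 tiles called (0%), 0 of 78978 (0%) and 0 of 80486 (0%), and with 2225, 2353 and 2612 tiles at an unadjusted p under 0.05. The highly methylated tile at chr18:12988000-12988999 had 95.01%, 95.4%, 93.6% and 95.4% in the LPS 6 h libraries of cortex, against 97.4%, 96.6%, 96.4% and 96.2% in saline. The groups did not overlap there, 1.80 points apart by their means, and likewise at 12 h, 1.88 points apart, with every LPS library below every saline one. This held for 0.841% of all tiles at 6 h and 0.991% at 12 h, whatever their level. The tile lay outside the 5 to 95% band that the fits needed and was not tested.

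The 16 cortex libraries parted into 2 sets of 8 at 5 positions of the dense tile, a pattern found after the values were seen. In 8 libraries, chr18:12973140, chr18:12973198, chr18:12973238, chr18:12973351 and chr18:12973381 lay far below the other cytosines of their run. At chr18:12973140 these 8 averaged 16.1% ± 6.78 (SD, n = 8), against 38.8% for the rest of the run in the same libraries. At chr18:12973381 they averaged 15.5% ± 6.97 (SD, n = 8), against 37.3% for the rest of the run.

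In the other 8 cortex libraries the same 2 positions averaged 39.2% and 33.3%, against 38.8% and 34.0% for the rest of their runs. A gap of at least 10 points was found at 4 or 5 of the 5 positions in each of the 8 libraries, and at none of the 5 positions in the other 8 cortex libraries or in the 28 libraries of blood and hippocampus. The 5 positions were picked for such a gap in at least 4 cortex libraries. The 8 libraries were picked for a gap at 3 or more of them. Because the runs had been joined over blood and hippocampus libraries, the lack of gaps there and the clean split were favoured in advance. Every cortex group held 2 of the 8 libraries: saline replicates 2 and 4, LPS 6 h replicates 1 and 4, LPS 12 h replicates 2 and 3, and LPS 24 h replicates 1 and 4.

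**Figure D4:**
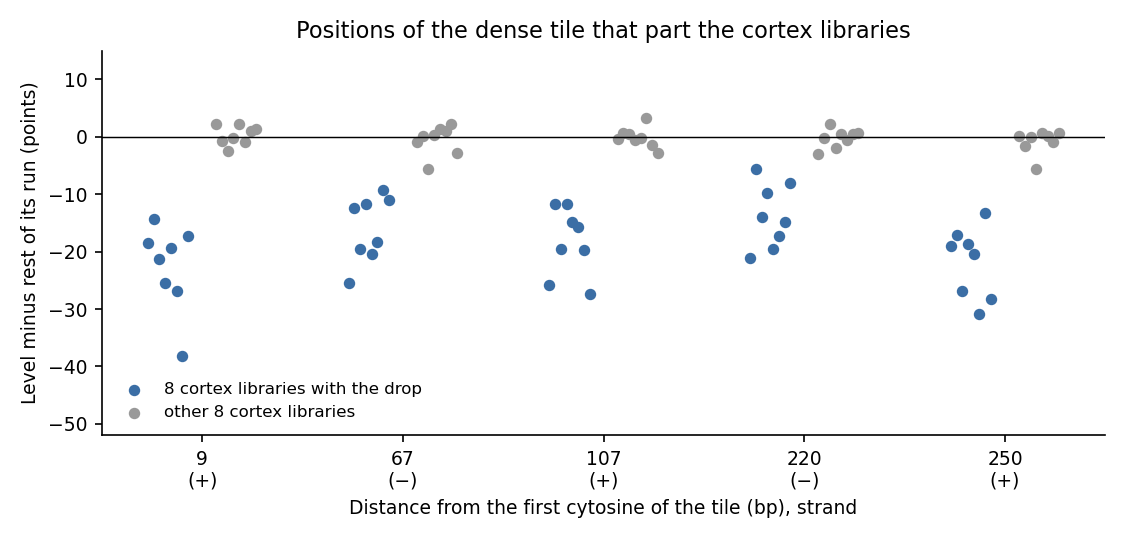
Level at 5 cytosines of the dense tile minus the mean of the other cytosines of the same run, in percentage points, for every cortex library; the horizontal axis gives the distance in bp from the first cytosine of the tile, with the strand. The 8 libraries with the drop lie 5.62 to 38.1 points below their runs, and the other 8 lie within 6 points of them.

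Within the 8 libraries the LPS minus saline difference of the dense tile was 4.72 points at 6 h, -5.47 at 12 h and 2.83 at 24 h, with 2 libraries in each group. Within the other 8 it was -8.26, 0.561 and 0.759 points. With the 5 positions left out, the cortex differences were -1.70, -2.56 and 1.85 points, and the hippocampal differences were -18.9 points at 6 h and -18.1 at 24 h. The 8 libraries also tended lower outside Impact, with ranges that overlap those of the other 8. Their overall means were 28.5% to 30.6% (median 30.01%), against 29.8% to 31.6% (median 31.1%) in the other 8. The median of 29 tiles at other imprinted genes, described below, was 25.8% to 36.6% in them, against 33.5% to 43.3%. Over all tiles, the deviations of an LPS and a saline library from their group means had a positive Pearson's r in 23 of 24 pairs from the same set of 8 and in 3 of 24 pairs from different sets, with medians of 0.138 and -0.146. Deviations from a group mean cancel within the group, so the 2 medians are not independent of each other. What sets the 8 libraries apart was not tested.

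The LPS difference was also compared between tissues. In the dense tile the hippocampal difference minus the cortical one was -16.9 points at 6 h (SE 7.54) and -19.8 points at 24 h (SE 5.00). Neither was called at an adjusted p under 0.05, in a fit at 24 h that called 1 of 54829 tiles (0.00182%). The hippocampal difference minus the blood one was -6.31 points at 6 h (SE 6.80) and -2.29 at 24 h (SE 5.32), and was not called.

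Calls between tissues came from contrasts with blood. At 24 h the cortical minus the blood difference was 17.5 points in the dense tile (SE 6.18) and 12.1 points in the gene mean (SE 4.03), and both were called, as were 31.7% of tiles and 37.6% of genes. In the end tile it was 12.3 points at 6 h, 12.2 at 12 h and 14.3 at 24 h, where the share of tiles called was 31.1%, 33.5% and 31.7%. For hippocampus minus blood the end tile gave 15.9 points at 12 h, with 33.4% of tiles called. LPS libraries of different times did not differ by a call in the gene mean in any tissue. The largest such difference was 7.63 points for hippocampus 12 h minus 6 h (SE 3.20). Without LPS 12 h replicate 2 that difference was 13.2 points and 24 h minus 12 h was -12.6 points, and both were called. That library stood out by its low level of Impact, so leaving it out favoured these calls in advance. With every library in the fit, 0 of 15025 genes were called in either contrast.

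Other imprinted loci were set beside Impact in each library. Of a list of 32 other imprinted genes, tiles with a saline mean of 30 to 70% in all 3 tissues numbered 29, a limit set after the values were seen. They belong to loci such as Snrpn/Snurf (the Prader-Willi region), Peg3/Usp29 (a zinc finger gene and a neighbour that share a promoter region), Mest, Plagl1, H19, Gnas, Igf2r/Airn (a growth factor receptor and its antisense RNA) and Trappc9/Peg13. In saline hippocampus their median was 42.3%, 39.9% and 41.3% in the 3 libraries, and the dense tile of Impact lay below it by fewer than 5 points in each.

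After LPS 24 h the median of the 29 tiles was 42.1%, 40.5%, 39.8% and 30.2% in hippocampus, so 2 of 4 libraries lay within the saline range while Impact was at 22.4% and 16.5% in them. In 2 of the 4 libraries all 29 other tiles were above Impact, and in the other 2 libraries 28 of the 29 were. All 29 were also above Impact in hippocampus LPS 6 h replicate 1, cortex LPS 6 h replicate 2 and 1 control, saline cortex replicate 3, where Impact was at 27.2% and the median at 40.3%. After LPS 6 h the median was 35.6%, 27.8%, 34.8% and 24.2%, below all saline libraries. In LPS 12 h replicate 2, the library in which Impact was low, it was 25.2%, against 41.2% and 44.2% in the other LPS 12 h libraries.

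**Figure D5:**
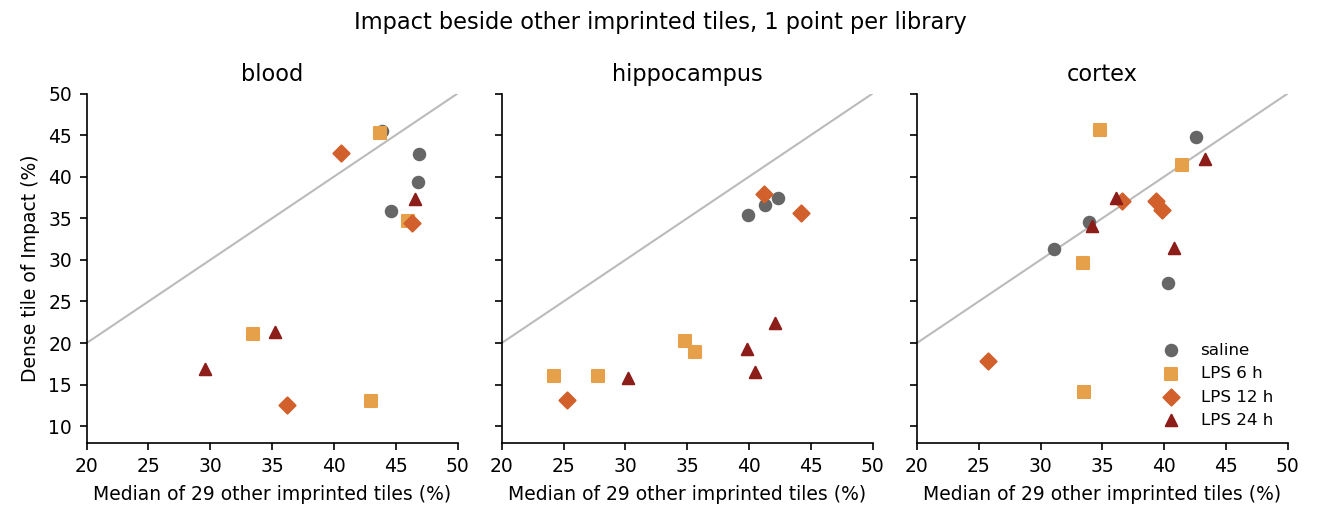
Methylation in percent of the dense tile of Impact against the median of 29 tiles at other imprinted genes, 1 point per library, by tissue; the grey line marks equal values. The hippocampus LPS 24 h libraries lie between 15.8% and 22.4% for Impact while 3 of them have medians of 39.8% to 42.1%, near the saline medians of 39.9% to 42.3%.

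By difference, Impact was the lowest of the 30 tiles in hippocampus at 24 h, at -18.0 points against a median of -4.01 and a lowest value of -16.0 among the other 29. Impact was chosen by these same values, so that rank was favoured in advance. The 29 tiles are not 29 separate loci, since several lie at Gnas and several at Zrsr1/Commd1. At 6 h the difference of Impact was -18.7 points against a median of -10.2. Of the other 29, 2 were lower at 6 h, the lowest being a tile of Trappc9 (-23.9 points). There 28 of the 29 were negative, and in 11 of them every LPS library lay below every saline library, against 1 of 29 at 24 h, where the share over all tiles was 16.2% and 8.23%. The overall mean of a library also moved with LPS 6 h in hippocampus: it was 24.1% to 24.8% in the LPS libraries, against 25.5% to 25.8% in saline. Over the 7 blood-cell genes the hippocampal median was 57.2%, 61.7% and 59.3% after LPS 6 h, 12 h and 24 h, against 66.5% after saline. Over 3 astrocyte genes it was 20.6%, 26.5% and 25.6%, against 30.4% after saline. Over the 6 neuronal genes it was 22.0%, 24.1% and 20.9%, against 20.9% after saline, and over 4 oligodendrocyte genes 20.1%, 20.9% and 20.02%, against 22.5%. The part of these shared shifts in the level of Impact was not tested.

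In blood the same medians were 43.0%, 43.7%, 46.0% and 33.4% at LPS 6 h, 36.2%, 46.3% and 40.6% at LPS 12 h and 35.2%, 46.6% and 29.6% at LPS 24 h, against 43.9% to 46.9% in saline. In LPS 6 h replicate 1 Impact was at 13.1% while the median was 43.0%. In cortex the 2 lowest libraries for Impact, LPS 6 h replicate 2 (14.1%) and LPS 12 h replicate 3 (17.8%), had medians of 33.5% and 25.8%, against 31.1% to 42.6% in saline.

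Gene means gave the following counts for the other imprinted genes. In hippocampus at 6 h, 3 of 31 tested were called lower, in a table with 1.83% of genes called lower: H19 (49.97% ± 2.91 after LPS, n = 4, against 62.7% ± 1.44 after saline, n = 3, SD), Igf2r and Airn. With each library centred on its mean, 0 of the 31 were called by limma (0.0249% of all genes were), while without centring 20 of the 31 had an unadjusted p under 0.05, as did 29.1% of all genes. H19 is a maternally expressed non-coding RNA whose control region is methylated on the paternal copy. The median difference of the 31 genes was -5.59 points, against -1.32 over all genes tested. At 24 h the median of 30 genes was -1.76 points, against -0.614 over all genes.

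In blood 7, 7 and 4 of 31 imprinted genes were called higher at the 3 times in turn. Of all genes, 41.1%, 46.5% and 39.8% were called higher. Lower calls numbered 5, 2 and 3 of the 31, where 11%, 8.97% and 9.82% of all genes were called lower. With each library centred on its mean, the lower calls numbered 12, 8 and 15, where 33.5%, 33.2% and 29.4% of all genes were called lower, and the higher calls 4, 5 and 3, where 27.1%, 27.9% and 26.5% were. The rise was largest in Mcts2 and its host gene H13, an imprinted pair on chromosome 2. Mcts2 had 88.8% ± 3.78 (SD, n = 4) at LPS 6 h, against 57.0% ± 7.16 (SD, n = 4) after saline. Kcnq1ot1, the paternal non-coding RNA that silences its neighbours, fell to 31.4% ± 10.2 (SD, n = 3) at LPS 24 h, against 48.0% ± 6.31 (SD, n = 4) after saline.

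The level of Impact in saline tissues can be set beside that of 4 other imprinted genes. Averaged over cytosines found in all 3 tables of a tissue, which are not the same cytosines in each tissue, saline hippocampus, saline cortex and saline blood had 61.4%, 50.6% and 55.3% at Snrpn, 68.2%, 62.3% and 66.6% at Peg3, 49.7%, 48.3% and 59.96% at Mest and 40.8%, 38.9% and 46.6% at Plagl1. Impact, on that scale, had 37.2%, 41.0% and 45.4%, the lowest of the 5 genes in blood. In hippocampus its mean lacked the end tile. With that tile, saline hippocampus averaged 43.2% ± 1.08 (SD, n = 3) over 54 cytosines, above Plagl1. In the same order of tissues, Kcnq1ot1 had 37.9%, 36.4% and 48.0%, and H19 had 60.5%, 56.5% and 53.2%.

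The genes whose 12 group means were most like those of Impact were C1ql4 (Pearson's r 0.950), Gm7967 (0.949), Gm32364 (0.939), Tbce (0.933) and Pla2g2c (0.931), of 21763 genes ranked. These are correlations over 12 points that share libraries. By Spearman's rho 2 of the 5, C1ql4 and Gm7967, stayed among the first 5. The hippocampal means of Impact in this ranking lacked the end tile, so its tissues were not compared over the same cytosines. On that scale Impact had 37.2% in saline hippocampus and 45.4% in saline blood. Over shared cytosines, limma's difference for hippocampus minus blood was -2.20 points. The matched pattern thus also carries a difference in measured cytosines, and its part in the ranking was not tested. C1ql4 moved over a narrower range, from 29.3% in hippocampus after LPS 6 h to 37.1% in saline blood. Of the neighbours with a gene mean, Osbpl1a, an oxysterol-binding protein gene that ends 12.8 kb before Impact, stayed between 11.7% and 12.2% in all hippocampal groups, and Zfp521, a zinc finger gene, had 39.2% after LPS 6 h, 42.1% after LPS 12 h and 41.2% after LPS 24 h, against 42.8% in saline hippocampus. The 4 hippocampal groups of Zfp521 stood in the same order as those of Impact, over a narrower range.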

How the data were processed

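DNA methylation was measured in 44 libraries in 12 groups taken from the labels. The authors deposited 9 tables of percent methylation per cytosine (0 to 100), 1 for each tissue and time. Per the submitters' processing notes, reads were handled with Bismark and Bowtie2 (build GRCm38/mm10), Trim Galore, FastQC, SAMtools and methylKit. Versions, filters and coverage minimum: not given in the sources used here, so coverage could not be varied. A regional mean over RRBS cytosines weights each cytosine equally, and a saline library had the same values in each table of its tissue. No sample column was left unused (0).

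Percentages were averaged over Impact and over 1-kb tiles (at least 3 cytosines) and compared in R 4.3.3 by limma 3.58.1 (linear fit, trended eBayes, two-sided, Benjamini-Hochberg adjustment over all genes, tiles or cytosines with a mean of 5 to 95%), after a check on simulated data. Python 3.11.15, numpy 2.4.6, pandas 2.3.3 and matplotlib 3.10.9 did the rest, with a two-sided exact permutation test of Impact values over libraries. Gene spans came from RefSeq (GRCm38.p6). The gene, lists and rules were chosen with earlier results of these data known. Named cytosines were the 2 with the largest difference in each comparison and the lowest and highest saline ones; named imprinted genes were the 3 with the largest called difference, beside a listed few. Alternatives covered level filters, scaling, strands, flanks, tile position, replicate blocks and left-out libraries.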

Additional observations from a re-analysis of the deposited data

Results flagged for a closer look

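In cortex LPS 12 h, replicate 3 stood far from the other 3 libraries, with 17.8% in the dense tile against 36.0% to 37.1%, and with a gene mean of 30.4% against 42.2% to 42.8%. In blood LPS 6 h, replicate 3 had 68.3% in the end tile, against 73.5% to 74.5% in the other 3 libraries. Chance alone flags about 1 in 20 groups at this limit, and 44 groups of 4 libraries were looked at.

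The LPS difference was larger in blood than in cortex at 24 h for the gene mean (cortex minus blood 12.1 points) and the dense tile (17.5 points). For the end tile cortex minus blood was 12.3 points at 6 h, 12.2 at 12 h and 14.3 at 24 h, and hippocampus minus blood was 15.9 points at 12 h. All of these passed limma's interaction test at an adjusted p under 0.05, and all rest on the saline blood libraries, whose blood-cell genes lay between those of LPS blood and brain.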

How the results depend on the processing

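With each library centred on its mean, the gene mean was -10.8 points (blood 6 h), -10.4 (blood 12 h) and -11.4 (hippocampus 24 h) and was then called. Those blood fits called 33.5% and 33.2% of all genes lower. With the same centring, the low tile in blood 12 h turned to -0.871 and the tile at chr18:12988000-12988999 in hippocampus 12 h to 0.00652. The hippocampus minus blood difference of the gene mean at 24 h turned to 1.56. Called blood cytosines at 12 h became 7. Without the limit on level the blood counts were 5, 0 and 0, and with a minimum of 25 points 4, 0 and 1. The median over cytosines turned the cortex 24 h gene mean to -0.518. With at least 5 cytosines a tile, the dense tile in hippocampus 6 h kept -18.7 points and was called. Under the replicate block the gene mean was -11.8 points in blood 24 h and -12.3 in hippocampus 6 h, no longer called, and no other call changed; same-numbered libraries shared only a number, and not every library correlated best with its own. Of the genes most like Impact, 2 were shared with Spearman's rho.

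Leaving out each library in turn, the blood gene mean ranged from -11.9 to -6.20 points (6 h; called without LPS replicate 2) and -11.8 to -2.81 (12 h; called without LPS replicate 3). The dense tile in blood ranged from -17.9 to -7.19 (6 h; called without LPS replicate 2), -17.4 to -2.25 (12 h; called without LPS replicate 3) and -21.8 to -11.5 (24 h; not called without LPS replicate 1 or 3). Called blood cytosines ranged from 8 to 16 (most without LPS 6 h replicate 2), 0 to 9 (0 without LPS 12 h replicate 2, 9 without replicate 3, 1 without saline replicate 1 or 4) and 2 to 21 (2 without LPS 24 h replicate 1, 3 without replicate 3, 21 without replicate 2, and 6, 4 and 5 without saline replicates 1, 2 and 3).

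In hippocampus the gene mean ranged from -13.1 to -12.3 at 6 h (not called without LPS replicate 1 or 2 or saline replicate 3), -6.87 to 0.589 at 12 h (positive without LPS replicate 2) and -12.8 to -11.3 at 24 h (called without LPS replicate 1). The dense tile ranged from -12.1 to 0.259 at 12 h, where called cytosines ranged from 0 to 1. In cortex the gene mean ranged from -3.11 to 2.72 (6 h) and -2.79 to 1.44 (12 h), and the dense tile from -6.09 to 4.44, -4.88 to 2.28 and -0.629 to 5.25. The low tile ranged from -1.10 to 0.0738 in blood 24 h and -0.240 to 1.56 in hippocampus 12 h, the tile at chr18:12988000-12988999 from -1.92 to 0.472 in hippocampus 12 h and the end tile from -0.368 to 3.10 in cortex 12 h.

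Between saline tissues, cortex minus blood ranged from -6.12 to -2.67 (gene mean) and -9.87 to -3.99 (dense tile), both called without cortex replicate 1, and the dense tile from -0.402 to 5.48 for hippocampus minus cortex. For the LPS difference, the gene mean ranged from -1.43 to 8.52 (hippocampus minus blood, 12 h), -3.83 to 3.14 (24 h) and -5.85 to 2.20 (hippocampus minus cortex, 12 h). Between times it ranged in blood from -2.93 to 6.08 (12 h minus 6 h), -8.48 to 0.526 (24 h minus 12 h) and -6.04 to 0.624 (24 h minus 6 h), in cortex from -4.27 to 2.25, -0.0521 to 4.06 and -1.33 to 4.49, and in hippocampus (24 h minus 6 h) from -0.190 to 1.37. Hippocampus 12 h differed from 6 h (13.2 points) and from 24 h (-12.6 points for 24 h minus 12 h) by a call once LPS 12 h replicate 2 was left out. That library had the low level of Impact, so its removal favoured these calls in advance. The called cortex minus blood differences lost the call in some such fits: 7 of 15 for the gene mean (9.75 to 15.9 points), 9 of 15 for the dense tile (13.3 to 23.6), and in the end tile 3 of 16 at 6 h and 1 of 15 at 12 h. The cause was not tested for any of these. The cortex dense tile turned to 4.72 points at 6 h within the 8 libraries with the drop. At 12 h it turned to 0.561 points within the other 8. Apart from these and the imprinted counts given above, all other values, of 92 results, kept their direction and their side of the threshold. Depth could not be judged from percentages alone.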

Other observations

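A single cytosine of the nearly unmethylated tile split the libraries. At chr18:12955818 on the + strand, 17 of 44 libraries had 22.0% or more, up to 50%, and the others had 1.59% to 10.5%, with none between. The cytosine of the same CpG on the − strand, chr18:12955819, reached 13.5% at most. High libraries came from every group except saline hippocampus: 2 of 4, 2 of 3 and 2 of 3 in blood at LPS 6 h, 12 h and 24 h and 2 of 4 in saline blood, 1 of 4, 2 of 3 and 2 of 4 in LPS hippocampus, and 1 of 4 in each cortex group.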
